A study of Arabidopsis thaliana with 6 samples.

Results

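The genes described here are 41 wall-loosening genes of *Arabidopsis thaliana*, named by locus code, out of 33602 loci in the deposited count table. They comprise 25 genes for xyloglucan endotransglucosylase/hydrolases (XTH), 13 for alpha expansins (EXPA) and 3 for expansin-like A proteins (EXLA). The list was chosen by gene family with the read counts of mutant and wild type in these libraries already known, so the members' genotype differences are given as a description, without a p-value for any member. In all, 34 of the 41 had enough reads to enter the fit across all genes and 7 did not.

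Plant cells can enlarge only when their walls yield. Xyloglucan, a hemicellulose that coats and tethers cellulose microfibrils, is cut by XTH enzymes, most of which join the cut end to another xyloglucan chain while a few split the chain with water. Expansins loosen the contacts between wall polymers without cutting them and act best in acid walls, which plasma membrane proton pumps maintain. In stems both families are known from elongating cells and from the cambium and young xylem, where new cells widen before their secondary walls form. Several XTH genes are also known to respond quickly to touch, hormones and wounding, *XTH22* having been found as the touch gene *TCH4*.

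The RNA was taken from basal stem fragments of 1 cm, from plants 15 to 20 cm tall, with 3 fragments pooled in each library and 3 libraries of each genotype. The analysed stems were labelled *smxl4 smxl5* or wild type, and all shoots had been grafted as seedlings onto wild-type roots, so the genotypes differed above the graft. For every library, 5 days are given before grafting and 16 h of light for the long days. *SMXL4* and *SMXL5* are related genes known to promote phloem formation, and the comparison asked how a radially growing stem with defective phloem differs from wild type. The labels do not describe the alleles or the ecotype.

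Library totals ran from 21364628 to 49929595 counts, so that a count of 0 allows up to 0.0605 to 0.139 CPM (the usual depth-scaled count), a limit that covers counting error only. The genotype labels could not be checked from the counts. *SMXL4* was at 11.2 to 15.3 CPM in the *smxl4 smxl5* libraries, called mutant-labelled from here on, and at 10.2 to 12.1 CPM in wild type, and *SMXL5* at 82.0 to 116 CPM against 97.5 to 112 CPM. Mutant-labelled replicate 3 stood apart from its group. It was at least 1 log2 unit (2-fold) above the mean of replicates 1 and 2 for 392 of 20296 genes tested (1.93%) and as far below for 27 (0.133%), on a scale of log2(CPM + 0.5). Among the 34 tested members it was that far above for 9 and that far below for 0, so results are given with and without this library. By the same measure, each remaining library was set against the mean of the other 2 libraries of its group. Mutant-labelled replicate 1 was that far below for 4 members (0.379% of all genes tested). Mutant-labelled replicate 2 was below for 8 (1.63%) and above for 1 (0.0936%). For both, that mean includes replicate 3, so a member high in replicate 3 can also count as low in them. Each wild-type library was that far off for 0 members. Over all genes tested, wild type replicate 3 was that far above for 0.636% and below for 0.0641%. By a chi-square per gene between libraries, it also stood apart, at 32.5 and 36.4 from wild type replicates 1 and 2, against 12.2 between those. For mutant-labelled replicate 3 the values were 33.2 and 28.1, against 17.4.

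The sequences of the XTH active site show what the encoded enzymes share. In all 25 XTH members a stretch of 30 coding bases holds the codons of the 2 catalytic glutamates, the first acting as the nucleophile and the second as the acid and base. The stretch is printed for 6 members whose values carry the results, from the RefSeq annotation of the TAIR10.1 genome, read 5′ to 3′ on the coding strand, with both glutamate codons in capitals.
*XTH4* (AT2G06850, chr2:2764490-2764519, plus strand): catgacGAGatagactttGAGttccttgga
*XTH9* (AT4G03210, chr4:1416535-1416564, plus strand): cacaacGAAttcgattttGAGttcttaggg
*XTH32* (AT2G36870, chr2:15474073-15474102, minus strand): catgatGAGgtagacataGAAtttttgggg
*XTH22* (AT5G57560, chr5:23307839-23307868, minus strand): tgggacGAGatagatttcGAGtttttaggg
*XTH18* (AT4G30280, chr4:14826569-14826598, minus strand): tgggatGAGattgatttcGAGttcttagga
*XTH23* (AT4G25810, chr4:13129069-13129098, plus strand): tgggacGAGattgactttGAGttcttggga
Relative to *XTH4*, the stretch differed at 9 bases in *XTH9*, *XTH32*, *XTH22* and *XTH18* and at 6 in *XTH23*. Over longer stretches the genes were less alike, although whether each read could be assigned to a single gene was not checked. The closest tested pair within the families shared 85.2% of bases over 1123 bases (*XTH19* and *XTH18*), while the untested *XTH17* shared 90.8% with *XTH18* over 1086 bases, so that its few reads could belong to *XTH18*.

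In wild type the 41 genes ranged from 0 counts to abundant transcripts. Per kilobase of exon, *XTH24* was highest at 331 ± 40.5 CPM per kb (SD, n = 3), followed by *EXPA4* at 196 ± 14.1, *XTH32* at 173 ± 6.53, *EXPA6* at 150 ± 15.1, *XTH9* at 146 ± 13.1 and *XTH4* at 120 ± 9.05 CPM per kb. The neighbours *EXPA6* and *XTH9* in this order differed by less than their SD. *XTH22* came next at 107 ± 27.9 CPM per kb, with the widest spread among these 7 genes relative to its mean. At the other end, *XTH21*, an XTH gene known from roots, had 0 counts in every library. *XTH20* and *XTH25* had 0 counts in wild type, against 3 and 10 summed counts in the mutant-labelled group. *XTH17*, *XTH26*, *XTH33* and *EXPA2* had between 5 and 10 counts in total in wild type and between 2 and 9 in the mutant-labelled libraries. These 7 genes were not tested, and no fold change is given for them.

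**Figure D1:**
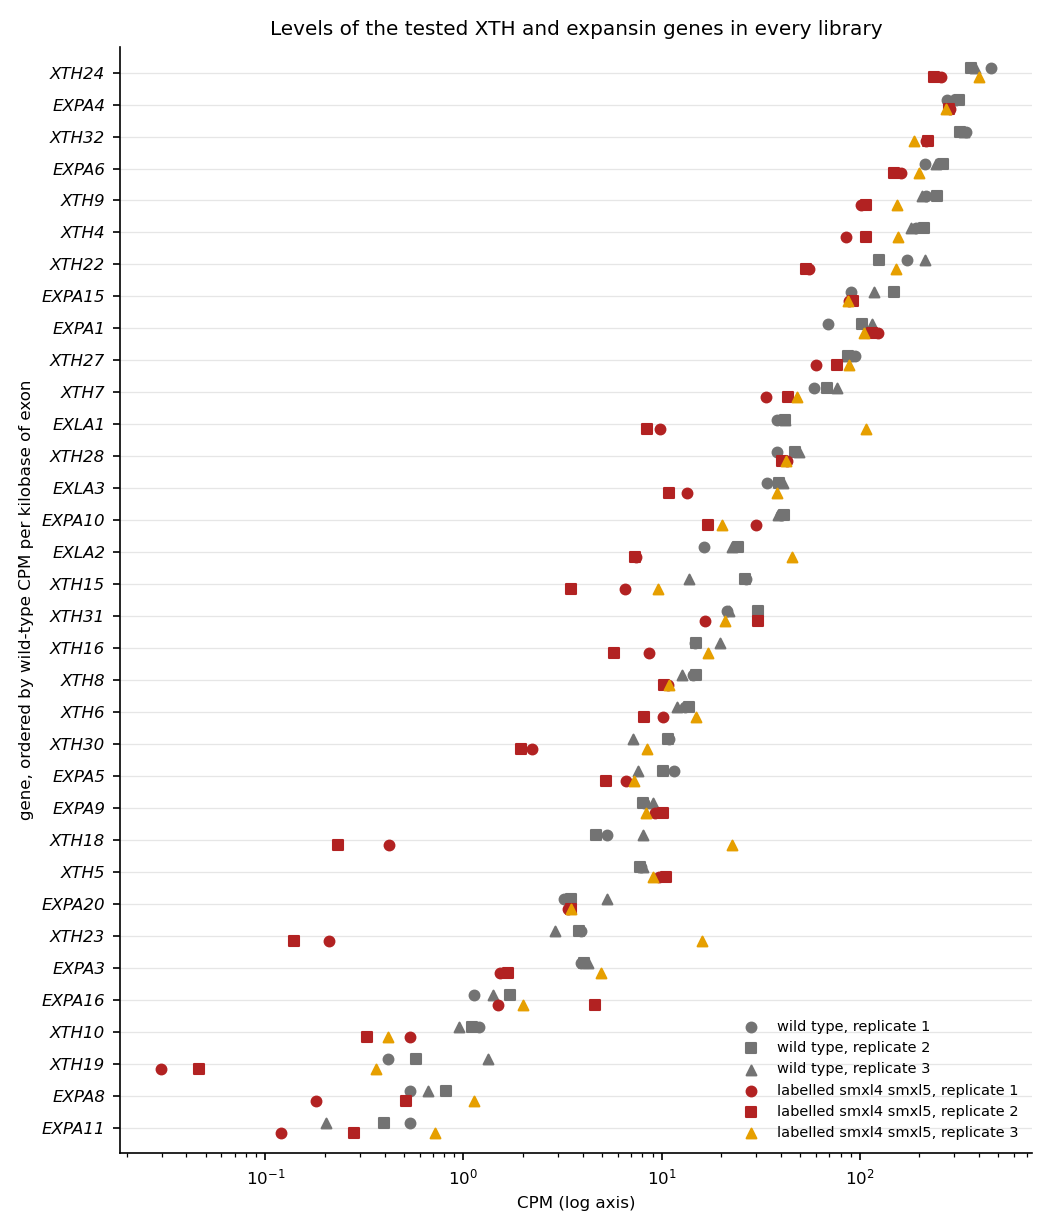
CPM (log axis) of the 34 tested members in each of the 6 libraries, with genes ordered by wild-type CPM per kilobase of exon; each point is 1 library, grey for wild type, red for mutant-labelled replicates 1 and 2, and orange for mutant-labelled replicate 3. For *XTH18*, *XTH23*, *EXLA1* and *EXLA2* the orange point lies to the right of all wild-type points while both red points lie to their left.

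Across the families the mutant-labelled libraries were mostly lower. With all libraries, 10 of the 34 tested members were lower with an adjusted p under 0.05 by edgeR's quasi-likelihood method, and 0 were higher, where 13.7% of all genes tested were called lower, 11.2% higher and 24.9% in either direction. Because the members were proposed with this contrast in view, nothing is read from that share. The log2 fold change of mutant-labelled over wild-type libraries was negative for 26 members and positive for 8, with a median of -0.40, where 47.0% of all genes were negative and their median was 0.02. The 10 called members were *XTH4*, *XTH7*, *XTH8*, *XTH9*, *XTH10*, *XTH15*, *XTH32*, *EXPA5*, *EXPA6* and *EXPA10*. For 12 members the genotypes' libraries did not overlap, 11 of them lower, where 45.3% of all genes did not overlap and 22.0% were lower without overlap. In bulk stem RNA, fewer cells of a type and less RNA per cell cannot be told apart.

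Mutant-labelled replicate 3 decided much of this count. Without it 22 members were called lower and 1, *XTH5*, higher, the median was -0.79, and the share of all genes called was 15.3% lower, 11.9% higher and 27.2% in either direction. Leaving out another library also moved the count, to 5 for mutant-labelled replicate 1, 6 for mutant-labelled replicate 2 and 5 for wild type replicate 1. Without wild type replicate 3 it was 7. Leaving out wild type replicate 2 left 2, *XTH9* and *XTH32*. Calls over all genes, 5053 in either direction with all libraries, fell in these runs as well. They were 2510, 3678, 2434, 4835 and 1902, in the order given. Nothing is read from these member counts. Mutant-labelled replicates 1 and 2 both lay below the lowest wild-type library for 24 members, where 28.8% of all genes tested did. Replicate 3 was also below for 11 of these 24, within the wild-type range for 6 and above the highest wild-type library for 7. Over all genes, 6.84% had replicates 1 and 2 below wild type and replicate 3 not. In 2.36%, replicates 1 and 2 were below wild type and replicate 3 was above the highest wild-type library.

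**Figure D2:**
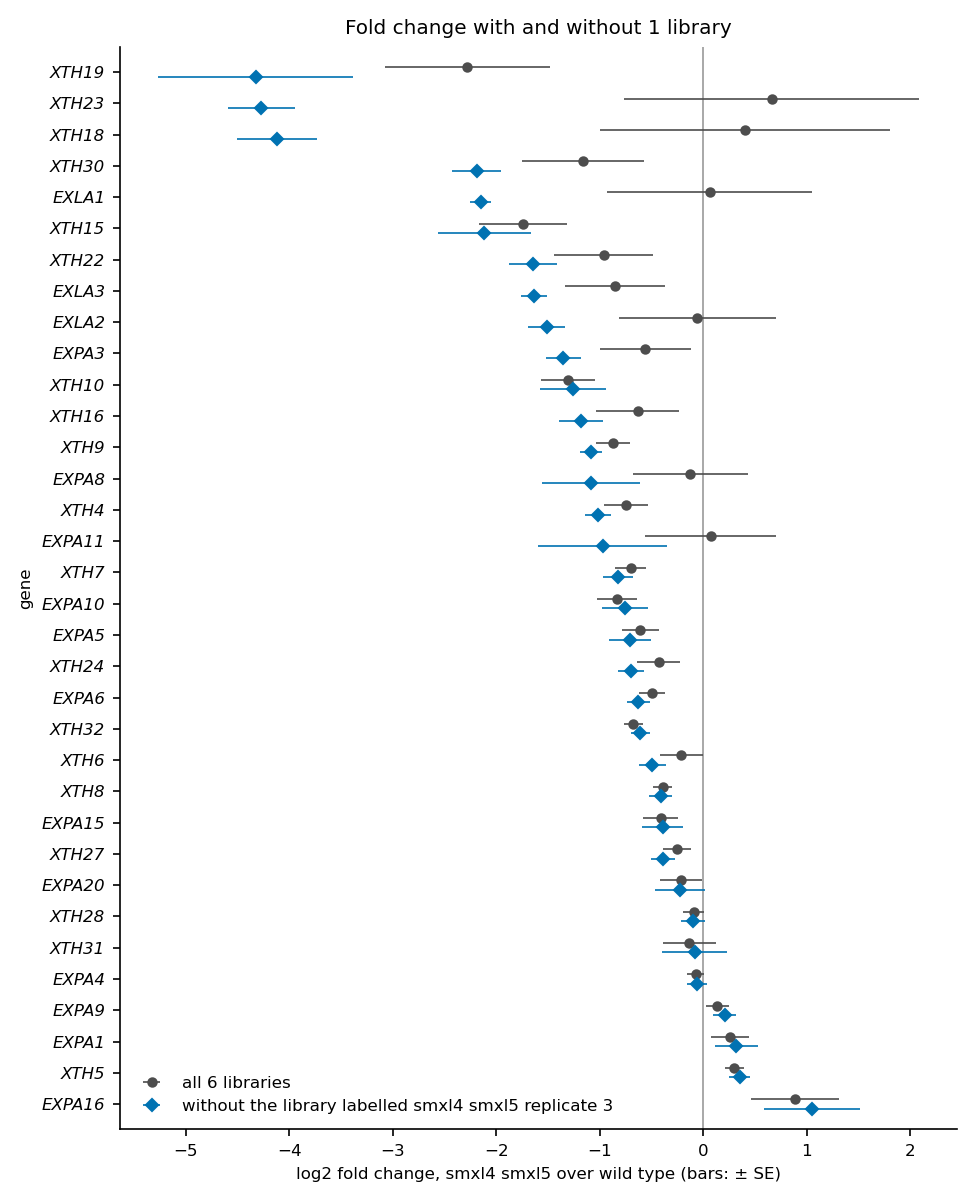
Log2 fold change of mutant-labelled over wild-type libraries for the 34 tested members, with bars of ± SE, from all 6 libraries (grey circles) and without mutant-labelled replicate 3 (blue diamonds); genes are ordered by the latter. *XTH18*, *XTH23* and *EXLA1* move from the right of 0 to the far left when the library is left out, while *XTH32*, *XTH8* and *EXPA4* stay in place.

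Among the XTH genes, 7 of 19 tested members were called lower with all libraries, where 13.7% of all genes tested were. As above, nothing is read from that count. *XTH9*, an XTH gene known from shoot tips and from the cambial zone, was at 102, 108 and 155 CPM in mutant-labelled replicates 1, 2 and 3 and at 217, 244 and 206 CPM in wild type. All mutant-labelled libraries were below all wild-type libraries, with replicate 3 the nearest, and the log2 fold change was -0.87 ± 0.17 (SE). *XTH4*, known together with *XTH9* for a role in secondary xylem, was at 85.3, 107 and 156 CPM against 192, 210 and 182 CPM. Its groups also did not overlap, replicate 3 was again the nearest to wild type, and the log2 fold change was -0.74 ± 0.21, or -1.02 ± 0.13 without that library.

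*XTH32* belongs, with *XTH31*, to the small branch of the family whose members are known to split xyloglucan rather than rejoin it. It was at 215, 221 and 188 CPM in the mutant-labelled libraries and at 343, 319 and 335 CPM in wild type. Here replicate 3 was the lowest library, and the log2 fold change was -0.68 ± 0.09, or -0.61 ± 0.09 without it. *XTH31* itself, at 16.5 to 30.5 CPM against 21.4 to 30.7 CPM, overlapped between groups, with a log2 fold change of -0.13 ± 0.25.

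*XTH7* followed the pattern of *XTH9*, at 33.6, 43.3 and 48.4 CPM in the mutant-labelled libraries and 59.0, 68.4 and 76.3 CPM in wild type, a log2 fold change of -0.70 ± 0.15. *XTH15*, whose protein is close to that of *XTH16*, had the most negative log2 fold change among members with a mean of at least 1 CPM. It was at 6.53, 3.49 and 9.56 CPM against 26.7, 26.3 and 13.7 CPM, or -1.74 ± 0.42. Its groups did not overlap, although wild type replicate 3 was well below the other wild-type libraries. The locus AT4G14120 overlaps *XTH15* on the opposite strand, and since the strand setting of the counting is not given in the sources used here, their reads may be mixed. *XTH8* was close together within each group, at 10.3 to 10.9 CPM against 12.6 to 15.0 CPM, a log2 fold change of -0.39 ± 0.09. *XTH10*, at 0.325 to 0.539 CPM against 0.949 to 1.19 CPM, changed by -1.30 ± 0.26.

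*XTH24*, the most abundant member and known from its high expression in meristems, was at 258, 236 and 398 CPM in the mutant-labelled libraries and at 457, 364 and 382 CPM in wild type. Replicates 1 and 2 lay below every wild-type library and replicate 3 between them, giving -0.43 ± 0.21 with all libraries and -0.70 ± 0.12 without replicate 3. In the branch of *XTH27*, *XTH28* and *XTH30*, the first is known for a role in vein xylem. *XTH27* had a log2 fold change of -0.25 ± 0.13 and *XTH28* of -0.09 ± 0.10, and both overlapped between groups. *XTH5*, a close relative of *XTH4* with 75.3% identical bases over 756 bases, lay on the other side, at 9.70, 10.6 and 9.06 CPM against 7.86, 7.81 and 8.09 CPM. Every mutant-labelled library of *XTH5* was above every wild-type library, with a log2 fold change of 0.30 ± 0.09.

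A group of 9 members was set apart by mutant-labelled replicate 3 and not by genotype as a whole. They were *XTH16*, *XTH18*, *XTH22*, *XTH23*, *XTH30*, *EXPA3* and all 3 EXLA genes, chosen because replicate 3 was at least 1 log2 unit above the mean of replicates 1 and 2. The ratio of replicate 3 to that mean ran from 2.39 to 91.7 in these 9. Outside the limit, *XTH15* had a ratio of 1.91, the highest among the 21 other tested members with a mean of at least 1 CPM. Under 1 CPM, *XTH19*, *EXPA11* and *EXPA8* had ratios of 9.43, 3.62 and 3.29, and *XTH10* of 0.96. With 0.5 CPM added, *XTH19*, *EXPA11* and *EXPA8* were 0.68, 0.81 and 0.98 log2 units above. At such low levels the limit therefore depends on the added 0.5 CPM. In every one of the 9, replicates 1 and 2 were below the lowest wild-type library, where 28.8% of all genes tested were. The rule that chose the 9 uses the same values and favours low replicates 1 and 2, so nothing is read from that count.

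*XTH23*, a close relative of *XTH22* with 80.8% identical bases over 845 bases, showed the widest span. It was at 0.210, 0.139 and 16.0 CPM in mutant-labelled replicates 1, 2 and 3, from 7, 3 and 577 counts, and at 3.93, 3.84 and 2.91 CPM in wild type. Replicate 3 was above all wild-type libraries and replicates 1 and 2 far below them. Its rate was 87.8 times the pooled rate of replicates 1 and 2 (exact 95% interval 47.4 to 184, counting error only). With all libraries the log2 fold change was 0.66 ± 1.42, an SE larger than the value, and without replicate 3 it was -4.27 ± 0.32.

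*XTH18*, of the same broad group of the family, behaved in the same way. It was at 0.419, 0.232 and 22.5 CPM, from 14, 5 and 813 counts, against 5.27, 4.66 and 8.01 CPM in wild type. The rate of replicate 3 was 65.1 times that of replicates 1 and 2 (41.4 to 109). The log2 fold change was 0.40 ± 1.40 with all libraries and -4.12 ± 0.39 without replicate 3.

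The touch gene *XTH22* (*TCH4*) was at 55.4, 53.3 and 153 CPM in the mutant-labelled libraries and at 172, 125 and 213 CPM in wild type. Here replicate 3 lay within the wild-type range. The log2 fold change was -0.96 ± 0.48, or -1.65 ± 0.23 without replicate 3. *XTH30*, at 2.22, 1.95 and 8.40 CPM against 10.9, 10.7 and 7.16 CPM, gave -1.16 ± 0.59, or -2.19 ± 0.23 without it. *XTH16*, at 8.62, 5.72 and 17.1 CPM against 14.7, 14.9 and 19.7 CPM, gave -0.63 ± 0.40, or -1.18 ± 0.21. In *XTH30* and *XTH16*, as in *XTH22*, replicate 3 fell among the wild-type values while the other 2 libraries lay below them.

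The expansin-like A genes encode proteins with the domains of expansins whose wall-loosening activity is not established. *EXLA1* (AT3G45970) was at 9.76, 8.46 and 108 CPM in the mutant-labelled libraries and at 38.1, 41.8 and 41.8 CPM in wild type. Wild type was tight, while replicate 3 was 11.8 times the mean of replicates 1 and 2, which were themselves well below wild type. The locus AT3G45980 overlaps *EXLA1* on the opposite strand, so reads of both may be mixed here too. *EXLA2*, at 7.45, 7.35 and 45.3 CPM against 16.3, 24.1 and 22.7 CPM, had the same order. *EXLA3*, at 13.5, 10.9 and 38.3 CPM against 34.1, 39.3 and 41.2 CPM, differed in that replicate 3 lay within the wild-type range. With all libraries the log2 fold changes of *EXLA1*, *EXLA2* and *EXLA3* were 0.06 ± 0.99, -0.06 ± 0.76 and -0.86 ± 0.48. Without replicate 3 they were -2.15 ± 0.10, -1.51 ± 0.18 and -1.64 ± 0.13.

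**Figure D3:**
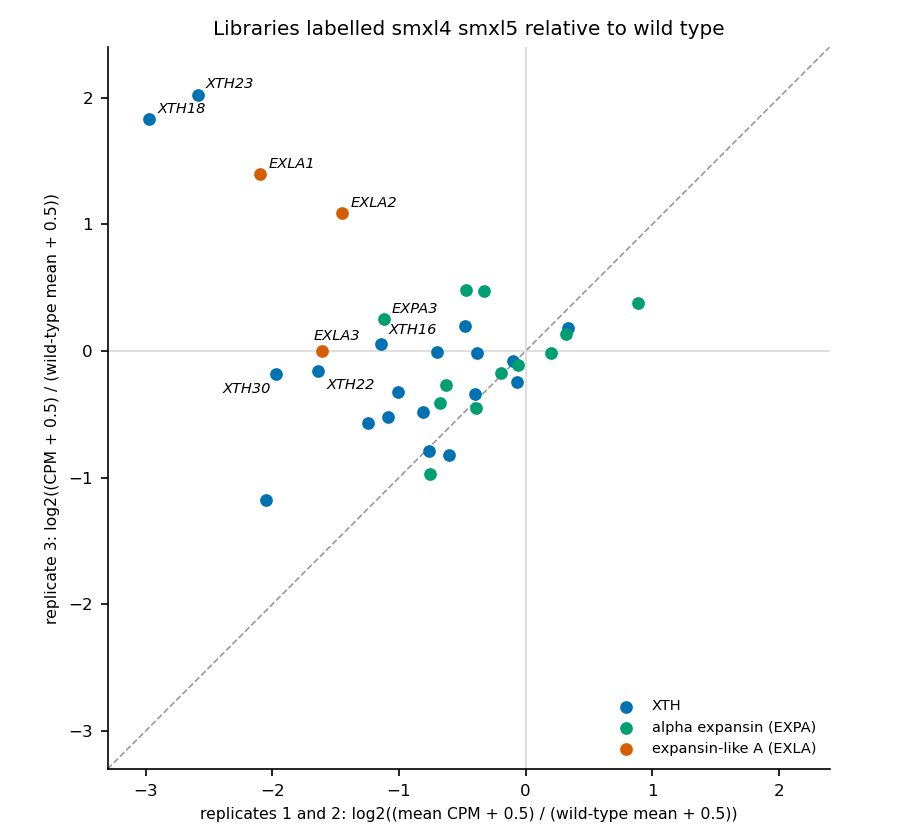
Each point is a tested member; the horizontal axis gives log2 of the mean CPM of mutant-labelled replicates 1 and 2 over the wild-type mean and the vertical axis the same for replicate 3, with 0.5 CPM added to each mean, and colours mark the families. Points on the dashed line have equal values in both; the 9 named members lie above it, with *XTH18* and *XTH23* at the top left.

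Of 12 alpha expansins tested, whose median log2 fold change was -0.17, 3 were called lower with all libraries, where 13.7% of all genes tested were. Without mutant-labelled replicate 3 the count was also 3, where 15.3% of all genes were called lower, and nothing is read from either count. The genes were not the same: *EXPA10* was called only with that library and *EXPA3* only without it. *EXPA6*, among the most abundant expansins of the stem, was at 160, 149 and 199 CPM in the mutant-labelled libraries and at 214, 262 and 242 CPM in wild type. Its groups did not overlap and the log2 fold change was -0.50 ± 0.13. *EXPA10* was at 30.0, 17.1 and 20.2 CPM against 40.2, 41.4 and 38.7 CPM, or -0.83 ± 0.19, with tight wild-type libraries and replicate 1 the highest of the mutant-labelled ones. *EXPA5*, an expansin gene known to be induced by brassinosteroids, was at 5.25 to 7.24 CPM against 7.59 to 11.6 CPM, or -0.61 ± 0.18.

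Other expansins overlapped between groups. *EXPA4*, the most abundant expansin per kilobase, was at 284, 282 and 273 CPM in the mutant-labelled libraries and at 274, 317 and 293 CPM in wild type, with a log2 fold change of -0.07 ± 0.08. *EXPA1*, known from leaf growth and guard cells, was at 123, 115 and 105 CPM against 69.2, 103 and 115 CPM, or 0.26 ± 0.18. Wild type replicate 1 was the low library in that gene. *EXPA9*, at 9.28, 10.2 and 8.32 CPM against 8.10, 8.07 and 9.02 CPM, gave 0.14 ± 0.11. *EXPA16* had the most positive log2 fold change of the members, 0.88 ± 0.42, from 1.5, 4.60 and 2.00 CPM against 1.13, 1.71 and 1.41 CPM. That value rested on mutant-labelled replicate 2, without which it was 0.28. *EXPA15* and *EXPA20* had log2 fold changes of -0.41 ± 0.17 and -0.22 ± 0.20, and *EXPA20* is overlapped on the opposite strand by AT4G38215. *EXPA3* was at 1.53, 1.67 and 4.93 CPM against 3.90, 4.06 and 4.24 CPM, so that replicate 3 was above and the other 2 libraries below every wild-type library.

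Some members that lie side by side on a chromosome differed widely in level. On chromosome 4 of TAIR10.1, *XTH24* (14819192 to 14820595), *XTH18* (14825757 to 14827211) and *XTH19* (14828712 to 14830224) follow each other on the minus strand with 0 coding genes between them. In wild type they were at 331, 4.73 and 0.581 CPM per kb. *XTH19*, known with *XTH20* from the rejoining of cut stem tissue, was at 0.0299, 0.0465 and 0.360 CPM in the mutant-labelled libraries against 0.417, 0.577 and 1.33 CPM, from 15 and 106 counts in total. Its groups did not overlap, and replicate 3 was again the highest mutant-labelled library, as it was in *XTH18* and *XTH24*. On chromosome 3, *EXLA3* and *EXLA1* lie 2012 bases apart on the same strand and are both among the 9 members raised in replicate 3 relative to replicates 1 and 2. In wild type they were closer in level, at 27.9 and 38.1 CPM per kb. On chromosome 5, *XTH25* and *XTH22* lie 565 bases apart, the first with 10 counts in all libraries together and the second among the most abundant members.

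Upstream sequence is shown for 3 of the 9 members set apart by mutant-labelled replicate 3 (*XTH18*, *XTH23* and *EXLA1*) and for 2 that were lower in all mutant-labelled libraries (*XTH9* and *XTH32*). Each is the 250 bases before the annotated gene start in TAIR10.1, 5′ to 3′ on the gene's strand. Capitals mark matches, on either strand, to short motifs. The promoter element that places the transcription start was searched as TATAAA. The light and stress element known as the G-box was searched as CACGTG. Elements bound by the brassinosteroid factor BZR1 were searched as CGTGTG, and in a second form as CGTGCG. W-boxes, which WRKY factors bind, were searched as TTGACC, and in a second form as TTGACT. The core of the element bound by the calmodulin-binding CAMTA factors was searched as CGCGT.
*XTH18* (chr4:14827212-14827461, minus strand): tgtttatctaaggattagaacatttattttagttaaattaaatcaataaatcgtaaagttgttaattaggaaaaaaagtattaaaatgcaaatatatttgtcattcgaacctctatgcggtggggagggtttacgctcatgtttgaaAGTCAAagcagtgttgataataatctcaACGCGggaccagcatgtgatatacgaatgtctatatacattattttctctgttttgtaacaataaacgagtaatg
*XTH23* (chr4:13128144-13128393, plus strand): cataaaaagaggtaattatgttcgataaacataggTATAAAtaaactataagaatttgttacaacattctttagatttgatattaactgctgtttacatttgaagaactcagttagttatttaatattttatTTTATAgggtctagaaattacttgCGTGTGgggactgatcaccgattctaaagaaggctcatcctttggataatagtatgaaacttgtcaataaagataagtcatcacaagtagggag
*EXLA1* (chr3:16895916-16896165, plus strand): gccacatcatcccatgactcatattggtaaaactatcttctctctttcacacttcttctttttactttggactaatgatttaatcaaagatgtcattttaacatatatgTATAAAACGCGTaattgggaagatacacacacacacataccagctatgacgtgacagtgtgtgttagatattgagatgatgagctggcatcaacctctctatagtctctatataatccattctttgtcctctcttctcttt
*XTH9* (chr4:1415367-1415616, plus strand): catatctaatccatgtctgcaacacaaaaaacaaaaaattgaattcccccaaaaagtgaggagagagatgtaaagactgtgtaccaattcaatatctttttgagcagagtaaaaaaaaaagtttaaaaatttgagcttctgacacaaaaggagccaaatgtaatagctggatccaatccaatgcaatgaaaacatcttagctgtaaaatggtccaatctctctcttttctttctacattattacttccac
*XTH32* (chr2:15474829-15475078, minus strand): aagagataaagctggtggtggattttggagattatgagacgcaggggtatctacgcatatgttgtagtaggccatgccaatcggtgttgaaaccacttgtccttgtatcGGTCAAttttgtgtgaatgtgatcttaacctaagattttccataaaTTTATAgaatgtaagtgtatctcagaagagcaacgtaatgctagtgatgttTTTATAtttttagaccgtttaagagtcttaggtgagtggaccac

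In *EXLA1* the TATAAA match, 141 bases before the gene start, is followed directly by ACGCGT, which holds CGCGT on both strands. CGCGT was found upstream of *XTH18*, *EXLA1* and *EXLA3*, which is 3 of the 9 members set apart by replicate 3, and of 4 of the 34 tested members, where 6.87% of 27443 coding genes had it. TTGACT was found upstream of *XTH18*, *XTH22* and *EXLA3* among the 9, and TTGACC upstream of *EXLA3*, where 19.1% and 12.2% of all coding genes had them. CGTGTG was found upstream of 5 tested members (*XTH8*, *XTH23*, *EXPA1*, *EXPA6* and *EXLA2*), where 5.37% of all had it. TATAAA was found upstream of 7 of the 9 and of 2 of the 10 members called lower, where 47.3% of all had it. CACGTG was found upstream of 0 tested members, where 6.49% of all had it, and CGTGCG likewise of 0, where 1.57% had it. A match says only that the letters are present in this window.

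In the authors' deposited table, 11 of the 31 members that have an adjusted p were under 0.05, all of them lower in the mutant. Of all genes with an adjusted p there, 25.7% were under 0.05. The members without one were *XTH18*, *XTH23*, *EXLA1* and the 7 that were not tested here. The sign in the authors' deposited table is wild type over mutant, as seen from a correlation of -0.944 across tested genes with the fold changes computed here, which share the same libraries.

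Genes that act beside the XTH and expansin proteins were followed from lists that do not contain members. These lists were also chosen with results of these data known, so their p-values are not independent evidence of a direction. Over all genes tested, 13.7% were called lower and 11.2% higher, the shares to set beside the counts of each list. Of 15 xyloglucan synthesis genes, all tested, 6 fell and 0 rose. They included *CSLC5* and *CSLC12*, of the family that makes the glucan backbone, and *XXT3*, of the xylosyltransferases that add side chains. *CSLC5* went from 71.7 ± 5.99 to 43.6 ± 3.61 CPM (SD, n = 3; log2 -0.72 ± 0.09, edgeR adjusted p = 0.00395). *CSLC12* changed by -1.03 ± 0.20 and *XXT3* by -0.88 ± 0.18 (edgeR adjusted p = 0.0137 and 0.0127). *CSLC12* was no longer called when mutant-labelled replicate 1 or either of the first 2 wild-type libraries was left out (edgeR adjusted p up to 0.0547), and *XXT3* when the first wild-type library was (edgeR adjusted p = 0.0507). The number that fell was 11 when mutant-labelled replicate 3 was left out, where 15.3% of all genes were called lower. It was 2 when replicate 1 of that group was left out. It was 1 with the first wild-type library left out and 2 with the second left out. *CSLC4* and *XXT1* were at least 1 log2 unit higher in mutant-labelled replicate 3 than the mean of replicates 1 and 2. *CSLC4* was at 66.8, 41.4 and 135 CPM against 110, 101 and 98.3 CPM in wild type, and *XXT1* at 29.1, 26.5 and 62.0 CPM against 74.3, 68.5 and 92.1 CPM. Of 3 genes that trim xyloglucan side chains, *BGAL10*, a beta-galactosidase gene, changed by -0.48 ± 0.12 (log2, edgeR adjusted p = 0.0277). It was no longer called when mutant-labelled replicate 1 or either of the first 2 wild-type libraries was left out.

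Of 6 tested genes for GH9 endoglucanases, 3 fell and 0 rose, where 13.7% of all genes tested were called lower and 11.2% higher. *GH9C2* changed by -0.78 ± 0.17, *GH9B1* by -0.61 ± 0.08 and *KOR1*, an endoglucanase gene needed for cellulose synthesis, by -0.42 ± 0.09 (edgeR adjusted p = 0.0165, 0.00432 and 0.0153). *KOR1* was no longer called when any 1 of 3 libraries was omitted, namely mutant-labelled replicate 1 and the first 2 of wild type (edgeR adjusted p up to 0.0698). The plasma membrane proton pumps, which acidify the wall, split. *AHA1* rose by 0.61 ± 0.10 on the log2 scale, from 676 ± 30.3 CPM in wild type to 1034 ± 110 (edgeR adjusted p = 0.00729), and *AHA2* by 0.47 ± 0.09, from 168 ± 5.30 CPM to 232 ± 25.4 (edgeR adjusted p = 0.0131). *AHA3*, the pump gene known from phloem companion cells, fell from 60.6 ± 1.65 to 34.6 ± 5.89 CPM (log2 -0.81 ± 0.12, edgeR adjusted p = 0.00568). Without wild type replicate 2, *AHA2* was no longer called (edgeR adjusted p = 0.0624).

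**Figure D4:**
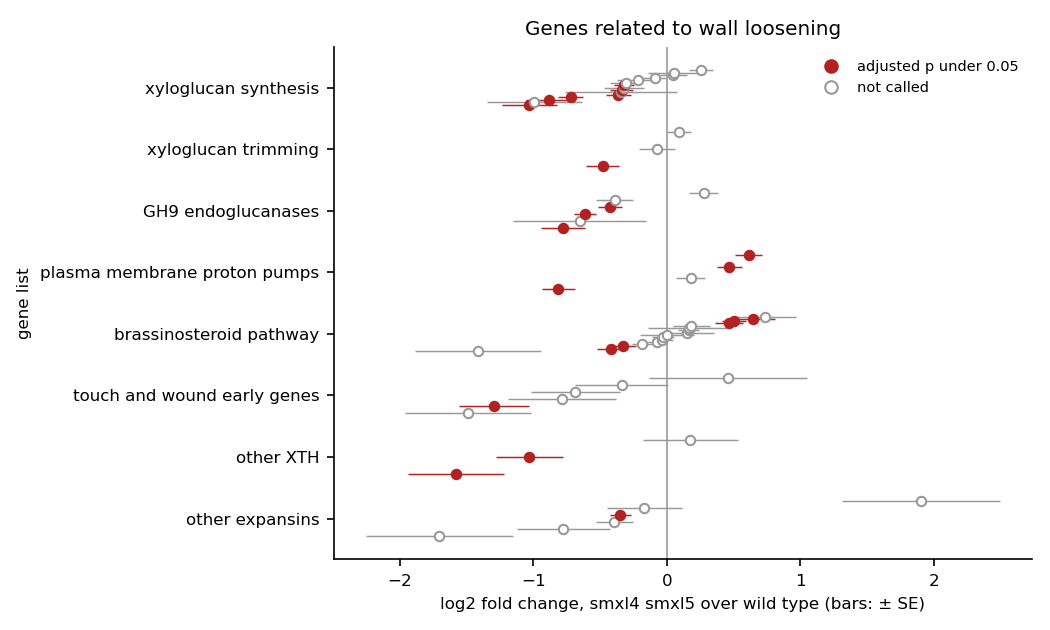
Log2 fold change of mutant-labelled over wild-type libraries for the tested genes of 8 lists related to wall loosening, none of them members, with bars of ± SE; filled red points were called at 0.05 after adjustment by edgeR. Of the 4 proton pump genes, 2 lie to the right of 0 and 1 to the left among the red points.

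Brassinosteroids are growth hormones known to raise XTH and expansin transcripts. Of 16 tested genes of that pathway, 3 rose and 2 fell, where 11.2% of all genes tested were called higher and 13.7% lower. These counts are near those shares, so nothing is read from them. The synthesis genes *CPD* and *DET2* rose by 0.64 (SE 0.17) and 0.47 (SE 0.10), and *IBH1*, which encodes a repressor of cell elongation, rose by 0.50 (SE 0.09) on the log2 scale (edgeR adjusted p = 0.0306, 0.0185 and 0.00798). The transcription factor genes *BZR1* and *BES1*, singled out after their values were seen, fell by 0.42 (SE 0.10) and 0.33 (SE 0.10) (edgeR adjusted p = 0.0264 and 0.0478). Only *IBH1* of the risers kept its call in every run that left out 1 library. The number that fell was 0 when any of mutant-labelled replicates 1 and 2 or wild type replicates 1 and 2 was left out.

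Of 6 genes known to respond early to touch and wounding, *TCH2*, a calmodulin-like gene, fell from 126 ± 33.7 to 51.2 ± 14.3 CPM (log2 -1.29 ± 0.26, edgeR adjusted p = 0.0192). It was not called when either of mutant-labelled replicates 1 and 2, or the first wild-type library, was left out. The summed level of the 6 genes was 522, 201 and 389 CPM in mutant-labelled replicates 1, 2 and 3 and 487, 326 and 635 CPM in wild type. Replicate 3 was at least 1 log2 unit above the mean of replicates 1 and 2 in 0 of the 6, where 1.93% of all genes tested were, so nothing is read from that count.

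Family genes outside the 41 included many with no counts. Of the 8 other XTH genes, 5 had 0 counts in all libraries. Of the 3 tested, *XTH29* fell by 1.58 (SE 0.36) and *XTH3* fell by 1.03 (SE 0.25) on the log2 scale, both below 1 CPM (edgeR adjusted p = 0.0195 and 0.0240). Neither was called once mutant-labelled replicate 1 or either of the first 2 wild-type libraries was dropped, and *XTH3* was not called by DESeq2 (adjusted p = 0.0764). Of 20 other expansin genes, 11 had 0 counts and 6 were tested. The beta expansin gene *EXPB3*, named after its values were seen, was at 394, 364 and 370 CPM in the mutant-labelled libraries and at 396, 584 and 502 CPM in wild type. Its wild-type mean of 494 CPM was above that of any member. Still, *XTH24* was higher in wild type replicate 1, at 457 CPM, and per kilobase of exon, at 331 against 236 CPM per kb. The groups of *EXPB3* did not overlap, wild type replicate 1 lay close to the mutant-labelled libraries, and it was not called (log2 -0.39 ± 0.14, edgeR adjusted p = 0.0743). Of the 6, *EXPA13* fell by 0.35 (SE 0.08, edgeR adjusted p = 0.0167). It was not called with mutant-labelled replicate 1 left out, nor with wild type replicate 2 left out. The only positive log2 fold change of the 6 was that of *EXLB1*, 1.90 ± 0.59, which was not called (edgeR adjusted p = 0.0544). *EXLB1* was at 1.11, 0.279 and 1.77 CPM in the mutant-labelled libraries and at 0.387, 0.200 and 0.303 CPM in wild type.

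Markers of the stem's tissues moved with genotype, and their part in the members' values was not tested. The 5 xylem markers all fell, with a summed level of 2365 to 2958 CPM in the mutant-labelled libraries and 3754 to 4789 CPM in wild type. The 3 phloem markers all fell (138 to 145 against 283 to 316 CPM), as did both cambium markers (332 to 411 against 459 to 520 CPM) and the 3 green tissue markers (2734 to 3548 against 4789 to 5171 CPM). Of the cambium markers, *PXY* was no longer called when mutant-labelled replicate 3 was left out (edgeR adjusted p = 0.0814), nor with mutant-labelled replicate 1 or either of the first 2 wild-type libraries left out (edgeR adjusted p up to 0.138). Of 4 epidermis markers 2 fell, the wax genes *CER1* and *MAH1*, and the summed level of all 4 was 97.8 to 109 against 196 to 340 CPM. *CER1* was at 23.5 to 26.4 CPM against 63.1 to 113 CPM, and *MAH1* changed by -2.18 ± 0.24 on the log2 scale (edgeR adjusted p = 0.00374). Within the mutant-labelled group, replicate 3 was at least 1 log2 unit from the mean of the other 2 in 0 of these markers. Of all genes tested, 1.93% were that far above and 0.133% that far below, so nothing is read from that count. Furthest below the mean was the floral gene *PI*, given at the end, by 0.89 log2 units. Furthest above the mean was *ATML1*, an epidermal identity gene, at 5.45, 5.86 and 10.7 CPM against 8.73, 10.7 and 7.77 CPM in wild type. Its replicates 1 and 2 were below every wild-type library, as in the 9 members, and replicate 3 was 0.86 log2 units above their mean. *ATML1* was called lower only without replicate 3 (log2 -0.68 ± 0.16, edgeR adjusted p = 0.0211, against 0.459 with all libraries). The root markers *COBL9* and *CASP1* summed to at most 0.0605 CPM in any library, and the floral gene *AP3* had 0 counts, while *PI*, the only tested gene of 3 floral markers, rose by 3.14 ± 0.65 on the log2 scale, from 0.167 ± 0.147 CPM in wild type to 1.38 ± 0.659 (edgeR adjusted p = 0.0156), and was not called when wild type replicate 2 was left out.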

How the data were processed

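The data are RNA sequencing counts of 6 stem-base libraries, 3 per labelled genotype. Per the labels' protocols, a directional library kit and poly(A) selection were used and each genotype had 3 biological replicates. Replicate numbers come from the sample titles, since the wild-type descriptions all give 1. The deposited counts are whole reads per gene and not normalized. The submitters' processing notes name TAIR10, DESeq2, TopHat2 2.0.14 and FastQC 0.11.7, while the counting program with its strand setting is not given in the sources used here. Per the file headers, the authors' comparison table gives the average normalized signal of each gene, its log2 fold change and standard error, a test score and p-values.

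Counts were fitted with edgeR 4.0.16 in R 4.3.3 (filterByExpr with minimum count 10 and total 15, TMM, robust quasi-likelihood F test, two-sided, Benjamini-Hochberg over 20296 genes at 0.05), a procedure tested on simulated data. The SE was derived from the log2 fold change and its F value. CPM uses TMM-scaled totals. DESeq2 1.42.0, no filter, a replicate block and leaving out each library were alternatives. Gene models are RefSeq TAIR10.1, where all 41 members were found, and BLAST 2.17.0 compared transcripts. Members and lists were chosen with earlier results of these data known. Members named in full are those that average 1 CPM or more and have the 8 most positive or 8 most negative fold changes, and the 6 most abundant per exon length. From other lists, the 3 largest called changes are named. Further genes were named after their values were seen.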

Additional observations from a re-analysis of the deposited data

How the results depend on the processing

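No shared deviation of same-numbered libraries was seen, with correlations of their deviations of 0.03, 0.07 and -0.02. Differently numbered ones ran from -0.20 to 0.14. These values cannot show whether libraries were handled in pairs. A fit with the replicate number as a block called 3356 genes, against 5053 without it. Under that block the log2 fold change turned from positive to negative in *XTH18* (-1.36), *XTH23* (-1.23) and *EXLA1* (-0.97), none of them called in either fit, and *CSLC12*, *KOR1*, *CPD* and *XTH3* were no longer called (adjusted p = 0.0521, 0.0531, 0.0776 and 0.0632). Under it 7 members were lower, 1 of the other XTH genes fell and 1 brassinosteroid gene fell. Without a filter on low counts 1 member, *XTH25*, was called higher. With DESeq2, 11 members were lower, 1 of the other XTH genes fell, 1 of the other expansins rose and 3 fell, and 3 touch and wound genes fell. Leaving out each library in turn, which also lowers the power to call genes, gave 1902 to 5558 genes called in all. Members called higher ran from 0 to 1, members called lower from 2 to 22, and the median log2 fold change of members from -0.79 to -0.30. In the same runs the number that fell was 0 to 2 for other XTH genes, 0 to 3 for other expansins (0 to 1 rose), 1 to 11 for xyloglucan synthesis (0 to 1 rose), 0 to 1 for xyloglucan trimming, 0 to 2 for the brassinosteroid pathway (1 to 3 rose) and 0 to 4 for touch and wound genes. For GH9 endoglucanases 0 to 1 rose and for proton pumps 1 to 2 rose. Genes under 1 CPM rest on few counts, which limits their fold changes.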
